A study of Mus musculus with 6 samples.

Results

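The sites described here are the weak end of the reproducible binding of a tethered Nrf1-MafG heterodimer, called after proteasome inhibition and not called without it. A site was kept when the summits of both MG132 lists were each other's nearest within 200 bp, when its score was below 15 in at least 1 of these lists, and when neither vehicle list had a summit within 200 bp of either summit. Of the 3379 reproducible MG132 sites, 2016 met these conditions (59.7%). They are called weak MG132-only sites below. They were chosen by the scores of both MG132 lists and by the positions in all 4 lists, so their low scores and their absence from vehicle are what the choice asked for and are given as a description.

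The lists come from chromatin immunoprecipitation and sequencing with an anti-MafG antibody on mouse embryonic fibroblasts. The cells carry the genotype MafF-/-::MafG-/-::MafK-/-:T-N1G, in which all 3 small Maf genes are deleted and T-N1G, the tethered heterodimer, is expressed. This genotype is shared by all 6 libraries. There were 2 vehicle libraries, 2 libraries from cells given 1.0 µM MG132, both treatments lasting 4 h, and 2 libraries of input chromatin, which have no list analysed here. The labels name neither the promoter that drives T-N1G nor whether the cells are 1 clone, and they do not say that the replicates were separate cultures. A summit is the base of highest enrichment in a called peak, and its score, on a −log10 scale, was given to that peak by the authors. A list shows nothing below its threshold, so "not called" is not "unbound". The lists held 3894 and 6576 summits for MG132 replicates 1 and 2, and 24 and 828 for vehicle replicates 1 and 2. Read depth is unknown from these lists. They hold no expression values, so the fibroblast label and the deletions were not tested here.

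Nrf1 belongs to the cap'n'collar family of transcription factors, which bind DNA only as a pair with another factor, mainly a small Maf protein. In unstressed cells Nrf1 sits in the membrane of the endoplasmic reticulum and is cleared by the proteasome. When the proteasome is blocked, as by the peptide aldehyde MG132, a processed form of Nrf1 accumulates in the nucleus, where it is known for raising the genes of the proteasome subunits. Small Maf proteins have no activation domain of their own, and tethering fixes the partner with which Nrf1 meets DNA. The element bound by such pairs is known as the antioxidant response element, which overlaps the Maf recognition element. Neither gene positions nor bases around the summits are given here, because the lists are in the mm9 assembly and no mm9 sequence or annotation was used.

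In each MG132 list, the score of 15 fell at about the same place. Below it lay 2544 of 3894 summits of replicate 1 (65.3%) and 4012 of 6576 summits of replicate 2 (61.0%). What became of these low summits differed between the lists. In replicate 1, 1880 of the 2544 (73.9%) were weak MG132-only sites, 162 were at sites also called in vehicle and 502 (19.7%) had no partner in replicate 2. In replicate 2, 1212 of the 4012 (30.2%) were weak MG132-only sites, 17 were at sites also called in vehicle and 2783 (69.4%) had no partner. Over all summits, 86.8% of replicate 1 and 51.4% of replicate 2 had a partner. The longer list had more low summits that the shorter list lacked. The bar plot of summits by score shows that the low bins of replicate 2 consisted mostly of summits without a partner.

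**Figure D1:**
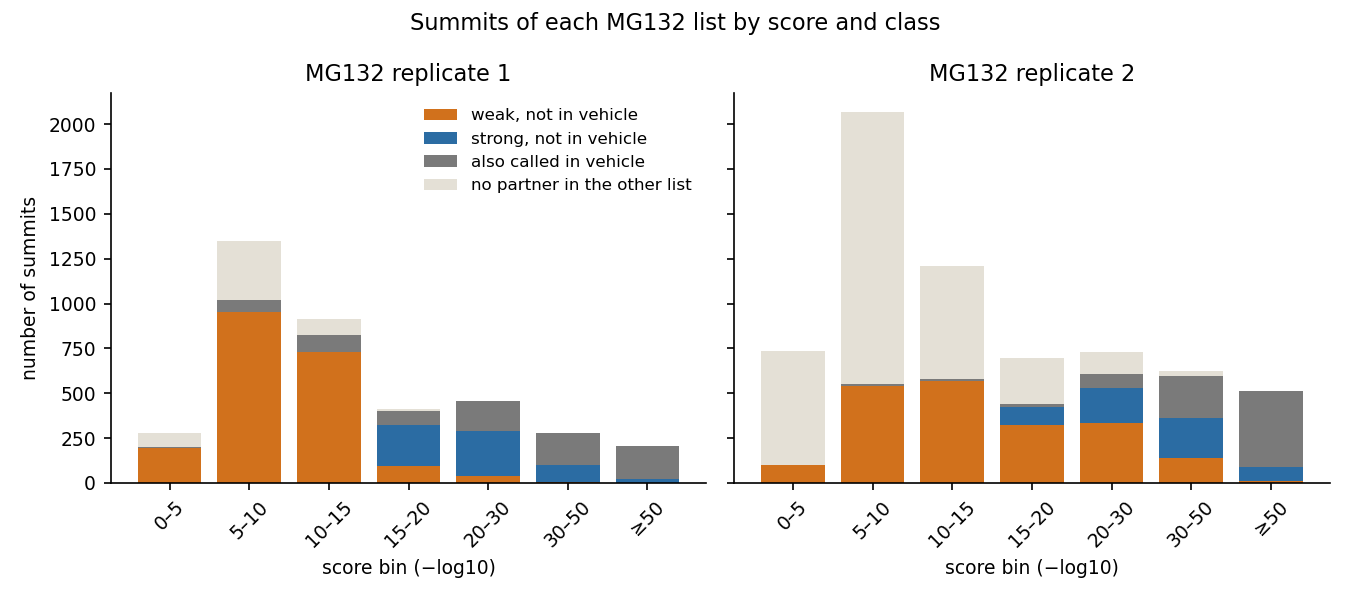
Number of summits (y axis) per score bin on the −log10 scale (x axis, lower bound included) in MG132 replicate 1 (left) and replicate 2 (right), coloured by the class of the site. Between 5 and 10, 955 of 1349 summits of replicate 1 were weak MG132-only sites, against 542 of 2067 summits of replicate 2.

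Most weak sites were weak in both lists, and most of the others were low in replicate 1 alone. Both scores were below 15 at 1076 sites (53.4% of the 2016). At 804 sites (39.9%) the score was below 15 in replicate 1 and not in replicate 2, and at 136 sites (6.75%) it was the reverse. In replicate 1 the scores of the 2016 sites ran from 1.34 to 35.8 with a median of 9.31 and quartiles of 6.75 and 12.2. In replicate 2 they ran from 1.62 to 79.9 with a median of 13.6 and quartiles of 8.86 and 19.6. As places within each list, the median site stood at percentile 36.7 of replicate 1 and 56.0 of replicate 2, where 100 is the strongest summit. Over all 3379 reproducible sites, the weak ones included, the medians were 55.9 and 72.1. At sites scoring at least 15 in both lists with no vehicle summit they were 78.9 and 82.8. At sites also called in vehicle they were 86.7 and 93.1. The median place was thus higher in replicate 2, the longer list, in every class. The difference was smaller outside the weak class, for a reason that was not tested. Site by site, replicate 2 minus replicate 1 had a median of 17.7 percentile points in the weak class. It was 2.15 at the sites scoring at least 15 in both lists with no vehicle summit. At sites also called in vehicle it was 4.52.

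The 598 strong MG132-only sites, with scores of at least 15 in both lists and no vehicle summit, had median scores of 21.6 and 30.1 in replicates 1 and 2. The 765 sites also called in vehicle had median scores of 28.5 and 54.2. Both lists thus put the 3 classes in the same order. For the weak and the strong sites this order follows from the score limit and the counts below it. Every strong site scored at least 15, and 1880 and 1212 of the 2016 weak sites scored below 15 in replicates 1 and 2.

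**Figure D2:**
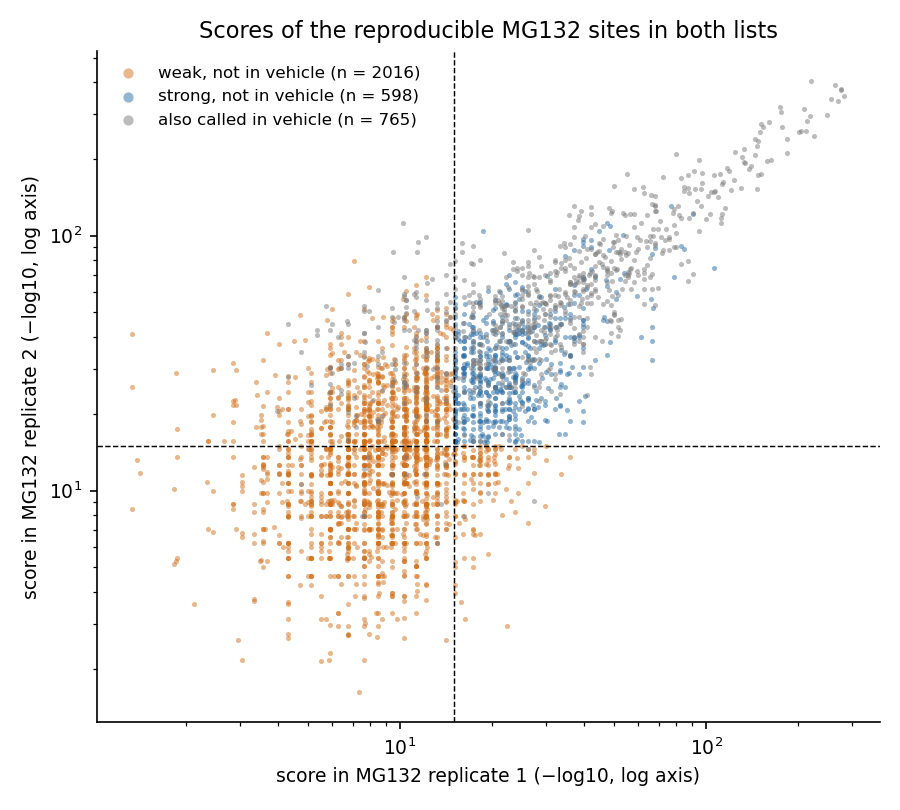
Score of each of the 3379 reproducible sites in MG132 replicate 1 (x axis) and replicate 2 (y axis), both on the −log10 scale and drawn on log axes, coloured by class, with dashed lines at 15. The 2016 weak sites fill the area left of or below the dashed lines and lie in columns at repeated scores of replicate 1, and the sites also called in vehicle reach the top right corner.

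Between the lists, the Spearman rho of the scores over the 2016 weak sites was 0.16, and over all 3379 reproducible sites it was 0.65. The rule leaves out of the weak class every site that is high in both lists, which by itself lowers the rho, so nothing is read from the lower value. Sites share the same libraries. The percentile was higher in replicate 2 than in replicate 1 at 1456 of 2016 sites (72.2%), with a median difference of 17.7 percentile points and quartiles of -3.53 and 36.1. Over all reproducible sites, the weak ones included, the percentile was higher in replicate 2 at 72.7%. The share differed between the other classes. It was 359 of 598 strong sites and 640 of 765 sites also called in vehicle, below and above that of the weak sites. At 243 weak sites (12.1%) the percentiles differed by more than 50 points. At or below percentile 25 were 620 of the sites in replicate 1 and 280 in replicate 2, and 120 of them were so in both.

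Scores of the weak sites took few values. In replicate 1 the 2016 sites shared 283 different scores, and 853 of them (42.3%) had one of only 8. These 8 values formed a ladder from 5.91 to 12.2, with steps that widened from 0.834 to 0.939. The commonest, 12.2, was held by 162 sites, and the next commonest, 7.61, by 120. In replicate 2 there were 471 different scores, and the 8 commonest covered 458 sites (22.7%). For comparison, the 8 commonest values covered 33.6% of strong sites and 13.2% of sites also called in vehicle in replicate 1. In replicate 2 they covered 14.5% and 8.89%. The score limit itself narrows the range of the weak scores. Ranks among weak sites are therefore shared by many sites, and small differences in percentile between named sites carry no order.

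The sites with the best mean percentile were all low in replicate 1 only. They are named by the mm9 position of the summit in replicate 2. The site on chromosome 15 at 81805800 scored 14.5 in replicate 1 and 47.9 in replicate 2, with ranks of 1360 and 541. The site on chromosome 17 at 84511746 scored 14.2 and 51.9, and that on chromosome 1 at 60917557 scored 14.2 and 49.2. The last of the 5 sites were on chromosome 4 at 58415179, with scores of 14.9 and 42.7, and on chromosome 8 at 113356069, with scores of 14.5 and 43.3. All 5 stood just under the limit in replicate 1 and among the strongest 675 of 6576 summits of replicate 2. The summits of the lists were between 2 and 40 bp apart at these sites.

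At the other end, the weakest sites were near the bottom of both lists. The rule asked for a partner within 200 bp, and their summits lay within 100 bp. Of all summits scoring below 5, 202 of 281 in replicate 1 (71.9%) and 99 of 734 in replicate 2 (13.5%) had a partner. The site on chromosome 6 at 120150648 scored 3.04 in replicate 1 and 2.17 in replicate 2, with ranks of 3827 of 3894 and 6542 of 6576. Its summits were 27 bp apart. The site on chromosome 5 at 93172528 scored 2.95 and 2.60, with summits 60 bp apart. The site on chromosome 9 at 50278875 scored 2.12 and 3.60, with summits 82 bp apart. The sites on chromosome 1 at 188556672 and on chromosome 3 at 81613746 had summits 26 and 73 bp apart.

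At the sites with the largest disagreement, a summit near the bottom of replicate 1 lay beside a high-scoring summit of replicate 2. On chromosome 6 at 38738034 the scores were 1.34 and 41.3, ranks 3892 and 736, and the summits were 1 bp apart. On chromosome 1 at 151873532 the scores were 3.66 and 41.4, and the summits were again 1 bp apart. On chromosome 10 at 76674192 the scores were 4.72 and 48.9, on chromosome 3 at 151777984 they were 4.03 and 37.5, and on chromosome 7 at 111464315 they were 2.84 and 31.6. All 5 were higher in replicate 2, and the summits of the last 3 were 26, 30 and 64 bp apart.

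Some sites reached a high score in 1 list. Those named next were picked for these scores. The site on chromosome 10 at 66488867 had the highest score of the group in replicate 2, 79.9, at rank 216 of 6576, and scored 7.08 in replicate 1. In replicate 2, 12 weak sites scored 50 or more. In replicate 1 the highest score was 35.8, on chromosome 12 at 21099265, where replicate 2 had 13.6. The next highest, 33.5, was also on chromosome 12, at 21976034, where replicate 2 had 11.7.

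Among 5 Mb windows, the one from 20000001 to 25000000 on chromosome 12 held the most sites below 15 in replicate 2 only, 5 of its 12 weak sites. It holds both sites on chromosome 12 named above. Sites below 15 in replicate 2 only have the higher percentile in replicate 1 by construction. Of the other 7 weak sites of the window, 5 had it too, against 424 (22.6%) of all 1880 weak sites that were not low in replicate 2 only. The median scores in the window were 14.2 in replicate 1 and 7.97 in replicate 2. Of the 114 windows with such a site, the next fullest was on chromosome 9 from 35000001 to 40000000 with 4 of 13, and no other held more than 2. The window on chromosome 12 was singled out after its values were seen.

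Sites lay close to the score limit of 15 on both sides. Just inside it, the site on chromosome 8 at 87647479 scored 19.1 and 14.96, and the site on chromosome 4 at 8737082 scored 29.98 and 14.94, in replicates 1 and 2. Just outside it were strong sites on chromosome 17 at 6428329, with scores of 15.09 and 41.5, and on chromosome 1 at 42648902, with scores of 15.13 and 53.9.

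Summits of the weak sites in the MG132 lists lay mostly within 50 bp of each other, farther apart than those of the other classes. The rule allows up to 200 bp. The distance between the summits had a median of 16 bp in the weak class (exact 95% interval of the median 15 to 17), 12 bp in the strong class (11 to 13) and 10 bp at sites also called in vehicle (9 to 11). The intervals do not overlap, but they cover counting error over sites only. Summits no more than 10 bp apart were found at 683 of 2016 weak sites (33.9%, exact 95% interval 31.8 to 36.0), 265 of 598 strong sites (44.3%, 40.3 to 48.4) and 387 of 765 sites also called in vehicle (50.6%, 47.0 to 54.2). At 1801 weak sites (89.3%) the summits were within 50 bp, and at 1991 (98.8%) within 100 bp. No direction stood out, since the median signed distance, replicate 1 minus replicate 2, was -1 bp.

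Within the weak class the spread of summits was wider at the very bottom. Sites were divided by mean percentile into 4 sets of 504. In the lowest set the median distance was 21 bp (18 to 25, touching the next set at 18), and 81.2% lay within 50 bp (77.5 to 84.5). In the other sets, from low to high, the medians were 16, 14 and 16 bp, and 90.5%, 92.9% and 92.9% lay within 50 bp. The sets above the lowest did not differ beyond their intervals. Sites low in both lists had a median of 17 bp, sites low in replicate 1 only 15 bp and sites low in replicate 2 only 16 bp. The intervals of these medians overlapped. Within 50 bp lay 87.2% (85.0 to 89.1), 91.5% (89.4 to 93.4) and 93.4% (87.8 to 96.9) of them. The first 2 of these intervals are narrowly apart, and the third overlaps both.

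**Figure D3:**
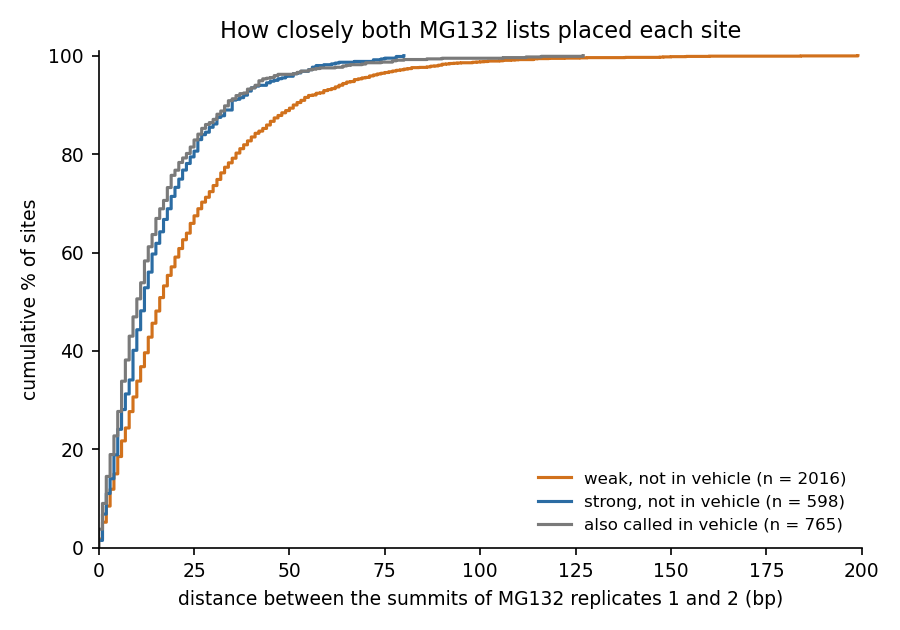
Cumulative percent of sites (y axis) by the distance in bp between the summits of both MG132 replicates (x axis), for the 2016 weak, 598 strong and 765 vehicle-shared sites. The curve of the weak sites runs below the other two, with 33.9% within 10 bp against 44.3% and 50.6%, and all 3 curves are near their end at 100 bp.

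Sites with low scores after MG132 were seldom called in vehicle. Over all 3379 reproducible sites, 765 were called in a vehicle list (22.6%). Of the 2182 with a score below 15 in at least 1 MG132 list, 166 were (7.61%, exact 95% interval 6.53 to 8.80), each of them in vehicle replicate 2 and none in vehicle replicate 1. Those 166 are left out of the weak MG132-only sites by the rule. Of the 1089 low in both lists, 13 were called in vehicle (1.19%, 0.637 to 2.03). The share called in vehicle among reproducible sites rose over the bins of replicate 1 from 5 of 202 below 5 (2.48%), 63 of 1018 between 5 and 10 (6.19%) and 94 of 822 between 10 and 15 (11.4%) to 184 of 204 at 50 or more (90.2%). It rose over the bins of replicate 2 from 0 of 99 below 5 (which allows up to 3.66% by the exact interval) and 8 of 550 between 5 and 10 to 424 of 512 at 50 or more (82.8%). The vehicle lists give no signal below their threshold, so these slopes measure no change at any site.

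Few weak sites had a vehicle summit anywhere near. Distances are from whichever MG132 summit of the site, of replicate 1 or 2, was nearer. The closest lay 652 bp away, and 22 of the 2016 sites (1.09%) had a summit of vehicle replicate 2 within 10 kb, against 11 of 598 strong sites (1.84%). Within 100 kb the counts were 211 (10.5%) and 79 (13.2%). The median distance to a summit of vehicle replicate 2 was 843 kb for weak sites. To vehicle replicate 1 the closest weak site was 14.4 kb away, and 679 weak sites were on chromosomes where that list has no summit.

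At each of the 5 weak sites closest to vehicle, the vehicle summit belonged to a separate reproducible MG132 site beside the weak one. On chromosome 10 the weak site at 72116746, with scores of 13.2 and 22.7, lay 652 bp from a vehicle replicate 2 summit at 72117398, ranked 379 of 828. On chromosome 11 the weak site at 75274751, with scores of 11.2 and 41.4, lay 711 bp from a vehicle summit ranked 292. On chromosome 1 the weak site at 120265801, with scores of 3.56 and 32.6, lay 1004 bp from a vehicle summit whose own MG132 site ranked 456 and 397 in replicates 1 and 2. On chromosome 1 at 181792637 the distance was 1077 bp, to one of the weaker vehicle summits, ranked 782. On chromosome 6 at 87819133 it was 1637 bp, to a vehicle summit ranked 107 whose MG132 site ranked 409 and 164. At these pairs, one member of a pair of neighbouring sites was called in vehicle and the other was not.

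Weak sites mostly stood alone. The nearest other summit of either MG132 list was at a median of 85.9 kb (quartiles 29.0 and 208 kb). It was at a median of 90.9 kb for strong sites and 63.9 kb for sites also called in vehicle. Another MG132 summit lay within 10 kb of 213 weak sites (10.6%, exact 95% interval 9.26 to 11.99), 70 strong sites (11.7%, 9.24 to 14.6) and 109 sites also called in vehicle (14.2%, 11.8 to 16.9). The share depends on the lists counted: low summits of MG132 replicate 1 absent from vehicle had a neighbour in their own list at 5.67%, with no partner asked for. Within 50 kb the shares were 36.3% (34.2 to 38.5), 35.8% (31.9 to 39.8) and 43.8% (40.2 to 47.4). Weak and strong sites did not differ beyond these intervals at either distance, and the sites also called in vehicle had more neighbours within 50 kb than the weak ones. Sites low in replicate 1 only had a neighbour within 50 kb at 42.5% (39.1 to 46.0) and sites low in both lists at 32.5% (29.7 to 35.4).

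**Figure D4:**
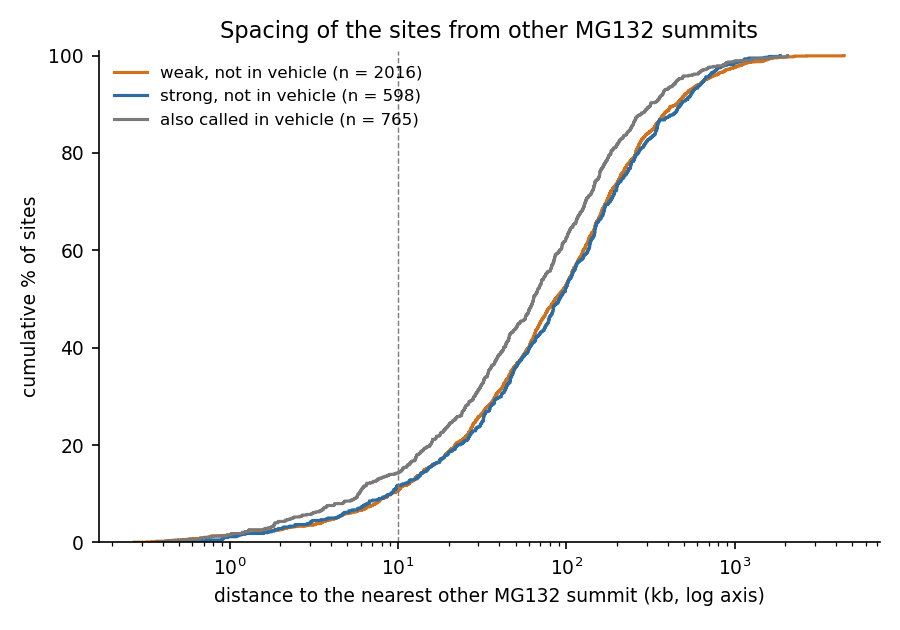
Cumulative percent of sites (y axis) by the distance in kb to the nearest other summit of either MG132 list (x axis, log scale) for the 2016 weak, 598 strong and 765 vehicle-shared sites, with a dashed line at 10 kb. The weak and strong curves run together, with 36.3% and 35.8% within 50 kb, and the curve of vehicle-shared sites lies above them with 43.8%.

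At 104 weak sites the nearest other reproducible site was within 10 kb. It was weak at 68 (65.4%, exact 95% interval 55.4 to 74.4), strong at 19 (18.3%, 11.4 to 27.1) and also called in vehicle at 17 (16.3%, 9.82 to 24.9). Over all reproducible sites the 3 classes make up 59.7%, 17.7% and 22.6%, and the interval of each share of the neighbours of weak sites holds that of its class. The neighbours of the 48 sites also called in vehicle with one so near were weak at 17 (35.4%, 22.2 to 50.5) and also called in vehicle at 20 (41.7%, 27.6 to 56.8). The interval for weak neighbours lies below that of the weak sites, but no difference is read from this. Neighbouring sites are often each other's nearest, so a pair can count at both its ends and enter both shares. The intervals treat each site as independent and are too narrow for such counts. Chaining weak sites no more than 10 kb apart left 1948 on their own, with 32 pairs and 1 group of 4. The pairs were spread over 15 chromosomes and were spaced from 670 to 9734 bp, with a median of 4694.5 bp, and 3 pairs were within 1 kb.

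The group of 4 lay on X between 166437849 and 166445200, a span of 7352 bp. Its sites scored 11.2, 14.1, 15.9 and 5.93 in replicate 1 and 12.1, 8.23, 3.67 and 9.18 in replicate 2, in order of position. At the third of these sites the ranks were far apart, 1250 of 3894 in replicate 1 and 6264 of 6576 in replicate 2. Within 10 kb of the group each MG132 list had 8 summits, of which 4 had no partner. The strongest of those without a partner, at 166441420 in replicate 1, scored 28.2. A further pair of weak sites lay before the group, at 166424208 and 166427655, so 6 of the 64 weak sites on X lay within its last Mb, where no strong site and no site also called in vehicle was found. The summits of the lists were 2 to 16 bp apart within the group of 4.

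Weak sites were found on all 20 chromosomes that carry any summit, and X had the lowest density. Densities are per Mb up to the last summit of any list. Autosomes together held 0.793 weak sites per Mb, from 0.538 on chromosome 14 to 1.21 on chromosome 9, and X held 0.385. After chromosome 9, the highest were chromosomes 19 with 1.065 and 10 with 1.052. The median distance from a weak site to the next was 0.685 Mb. Of 2640 windows of 1 Mb, 1262 (47.8%) held at least 1 weak site and 171 held 3 or more. The fullest windows held 6 and were on chromosome 5 from 101000001, chromosome 9 from 78000001, chromosome 10 from 127000001 and X from 166000001. The longest stretches without a weak site were 12.7 Mb on chromosome 13, from 75184465 to 87881326, and 12.5 Mb on chromosome 3, from 15065838 to 27579136. These stretches held 4 and 2 reproducible sites of the other classes.

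Relative to the autosomes, the density on X was higher for weak sites than for sites also called in vehicle, and low for both. Of the 2016 weak sites 64 were on X, a density of 0.485 of that on autosomes (exact 95% interval 0.372 to 0.622). The ratio was 0.303 (0.156 to 0.533) for the 598 strong sites, 12 of which were on X, and 0.196 (0.0936 to 0.362) for the 765 sites also called in vehicle, 10 of which were on X. The intervals of the weak and the vehicle-shared sites do not overlap, but their nearest ends, 0.372 and 0.362, lie close together. Without the 6 weak sites in the last Mb of X, the ratio of the weak sites was 0.440. No interval was computed for that ratio, so it is not known whether the intervals would stay apart. The interval of the strong sites overlaps both. Summits without a partner had ratios of 0.629 (0.386 to 0.972) in replicate 1 and 0.414 (0.330 to 0.512) in replicate 2, which overlap the interval of the weak sites.

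Grouping by score alone gave the same order, but this is no separate observation. The weak and strong classes were cut at the same score. Of the summits below 15, weak sites were 1880 of 2544 in replicate 1 and 1212 of 4012 in replicate 2. In MG132 replicate 1, whatever their class, summits below 15 had a ratio of 0.511 (0.407 to 0.635) and summits of 15 or more had 0.245 (0.153 to 0.373). In replicate 2 the ratios were 0.452 (0.374 to 0.543) and 0.318 (0.238 to 0.417). The intervals were apart in replicate 1 and overlapped in replicate 2. The lists share many of these sites and neighbouring sites are not independent, so the intervals cover counting error only and no test of the difference was made. On X itself the weak sites had median scores of 10.3 and 12.6 in replicates 1 and 2, and on the autosomes 9.31 and 13.6.

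**Figure D5:**
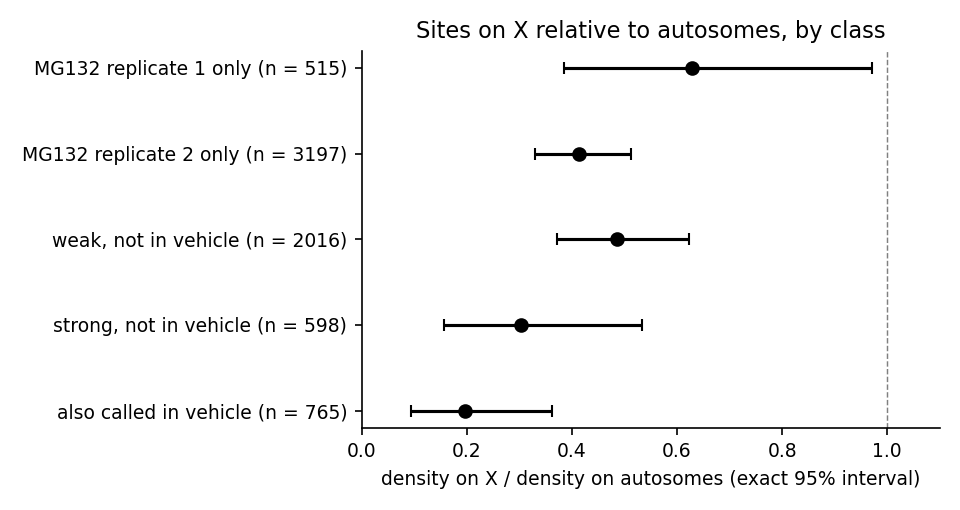
Density of sites on X divided by that on autosomes (x axis, points, with exact 95% intervals as bars) for 5 classes of MG132 sites or summits (y axis), with a dashed line at equal density. Weak sites stand at 0.485, strong sites at 0.303 and sites also called in vehicle at 0.196, and every interval lies below 1.

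As a share of the reproducible sites of a chromosome, weak sites made up 59.7% over all chromosomes. On X they were 64 of 86 (74.4%, exact 95% interval 63.9 to 83.2). On the autosomes the share ran from 51.6% on chromosome 19 (42.5 to 60.6) to 65.7% on chromosome 15 (57.0 to 73.7). On 19 of the 20 chromosomes the interval held the overall share, and on X it did not. Of 20 such intervals about 1 would miss a common share.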

How the data were processed

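Summit lists of 4 ChIP libraries were used, one per library, with 1-bp intervals in mm9. Per the submitters' processing notes, the tools were MACS2 2.1.4, Bowtie2 2.2.9 and bcl2fastq 2.16.0.10. Column 5 is the authors' deposited −log10 p or q value. Not given in the sources used here are which of them it is, the threshold, duplicate handling and the use of input. Groups follow the treatment in the titles, and replicate numbers the titles. Positions were made 1-based. Percentiles are ranks of the score within a list. The members and lists were chosen with earlier results of these data known. Shares carry exact Clopper-Pearson 95% intervals, the ratio of X to autosomes an exact conditional binomial one, and medians an order-statistic one. No test was run, because the rule used the contrast between conditions and sites are not replicates. Sites were named as the 5 best and 5 worst by mean percentile, those beside the score limit, the 5 with the largest percentile difference, groups of 3 or more within 10 kb and the 5 closest to vehicle. The matching was tested on simulated lists. Their sites were spaced too far apart to compete for a partner, and their weak sites were always low in replicate 1. Motifs, gene positions and gene lists were planned and not run, because the reference tables are of GRCm38.p6, in which the last gene of chromosome 1 ends before 13 of the summits. Computation used pandas 2.3.3, SciPy 1.17.1, NumPy 2.4.6 and matplotlib 3.10.9 in Python 3.11.15.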

Additional observations from a re-analysis of the deposited data

How the results depend on the processing

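Of 45 alternatives, 38 kept counts within 1.5 times, or other values inside the interval of the reported value. Vehicle replicate 1 decided nothing: without it the number of weak sites was again 2016, and without vehicle replicate 2 it was 2182. With both scores below 15 the number was 1076. A limit of 10 in place of 15 gave 1350 sites, and a limit of 20 gave 2288. Both count as kept, but the number follows the limit chosen. Leaving out 1 library each, including lists of a single MG132 replicate with no partner asked for, gave 2016 to 3980 sites, the highest without MG132 replicate 1. The share of weak sites within 10 kb of another MG132 summit ranged from 5.67% (without MG132 replicate 2) to 12.04% (without MG132 replicate 1) when 1 library was left out. With 1 MG132 list both the sites and the neighbours counted change. The share was 2.63% within 2 kb and 36.3% within 50 kb. The ratio of X to autosomes ranged from 0.456 to 0.501 without 1 library, and was 0.440 without the 6 sites of the last Mb of X, an alternative chosen after seeing the data. The median distance between summits was 14 bp with a match distance of 50 bp, which removes the wider pairs. No paired analysis was possible because no result comes from a test between the groups. Other window sizes for motifs and distances to transcription starts were not run, as no mm9 reference was used. The unknown depth limits every statement on sites that were not called.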
